A study of Homo sapiens and Mus musculus with 27 samples.

Results

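The 60 genes described here encode kinases, spindle, kinetochore and chromosome-structure proteins of mitosis, with 2 transcription factors of the same phase. They were picked by name: a gene belongs when its row name equals a listed symbol, ignoring case. All 60 were present among 59453 rows in the LM2 and LifeAct count tables. The mouse 4T1 table of 55367 rows held 59, and KIF4A was not analysed there, since the rule found no row of that name. Each of these rows had enough counts to be tested.

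RNA was sequenced in 27 libraries from 3 experiments, each with 3 groups of 3 replicates. LM2 is a human breast cancer line, a lung-metastatic derivative of MDA-MB-231, and 4T1 is a mouse mammary carcinoma line. In each of these lines, control cells of wild-type genotype were set against cells overexpressing (OE) wild-type MKL1, also of wild-type genotype, and cells overexpressing caMKL1. The LifeAct experiment used wild-type LM2 cells that were LifeAct negative (labelled as the control treatment), low or high. MKL1, also called MRTFA, is a coactivator of the transcription factor SRF that monomeric actin holds in the cytoplasm. The name caMKL1 is in common use for a constitutively active MKL1, and the labels do not spell it out. LifeAct is a short actin-binding peptide used to mark actin filaments. Titles and treatment labels give caMKL1 for all 3 replicates of that group in each line, whereas their genotype labels read caMKL1, caMKL2 and caMKL3. The labels do not describe the vectors, their promoters, what the control cells carry, or how far each population descends from 1 clone. They do not say that replicates are separate cultures, so p-values here measure the spread between these libraries. LM2 and 4T1 RNA was polyA selected and LifeAct RNA was depleted of ribosomal RNA, so levels were compared within an experiment.

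Entry into mitosis requires cyclin B bound to CDK1, which the phosphatase CDC25C activates, and the kinases PLK1, AURKA and AURKB then build and correct the spindle. Kinetochores assemble on centromeric CENPA chromatin and hold microtubules through the NDC80 complex, while the checkpoint proteins of the BUB and MAD families hold CDC20 and the anaphase-promoting complex in check until every chromosome is attached. Most of these genes are transcribed in late G2 and M phase under MYBL2, FOXM1 and the MuvB complex, which binds the cell cycle genes homology region (CHR) of their promoters, and they are repressed through the DREAM form of that complex when p21, the product of CDKN1A, blocks the cyclin-dependent kinases.

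Each LM2 library held between 22147429 and 32147377 counts, each 4T1 library between 21896459 and 29370432, and each LifeAct library between 15581289 and 23678322. In mitochondrial share the first LM2 caMKL1 library stood apart from its group, while among LM2 MKL1 libraries the second lay furthest from the rest. Mitochondrial counts made up 6.18%, 9.87% and 7.11% of the 3 MKL1 libraries in order. They made up 7.76% of the first caMKL1 library against 13.4% and 13.6% in the others. MRTFA, which checks the construct labels, was 15-fold and 20.2-fold higher than in control with MKL1 and caMKL1 in LM2, and 54.8-fold and 15.9-fold higher in 4T1. The 5 mesenchymal-like line markers (VIM, CD44, CAV1, AXL and SPARC) summed to between 3113 and 3278 CPM in LM2 control libraries, where CPM are counts scaled to the effective library size (the total after TMM normalization). The 5 epithelial markers (EPCAM, CDH1, KRT8, KRT18 and KRT19) summed to between 2133 and 2192 CPM in 4T1 control libraries. In LM2 control libraries the epithelial markers summed to between 351 and 369 CPM. The mesenchymal-like markers summed to between 3402 and 3459 CPM in 4T1 control libraries, so that list does not mark LM2 alone.

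Summed over the set, mitotic transcripts stood at 13473.5 ± 390.4 CPM (SD, n = 3) in LM2 control cells, 13529.1 ± 1385.6 CPM with MKL1 and 3673.0 ± 286.7 CPM with caMKL1. In 4T1 the sum was 9044.8 ± 271.8 CPM in control cells, 7703.4 ± 58.6 CPM with MKL1 and 6550.4 ± 74.1 CPM with caMKL1. In the LifeAct experiment it was 4305.3 ± 128.0 CPM in negative cells, 7612.2 ± 71.3 CPM in low cells and 8254.3 ± 116.6 CPM in high cells. The set was thus lowest in caMKL1 cells of both lines and lowest in the LifeAct-negative cells, and the LM2 control and MKL1 libraries overlapped. In bulk RNA, fewer cells in mitosis and less of these RNAs per cell cannot be told apart. All counts of higher and lower genes below come from edgeR's quasi-likelihood test with Benjamini-Hochberg adjustment over all tested genes, at an adjusted p of 0.05, and log2 ratios are given ± standard error (SE).

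**Figure D1:**
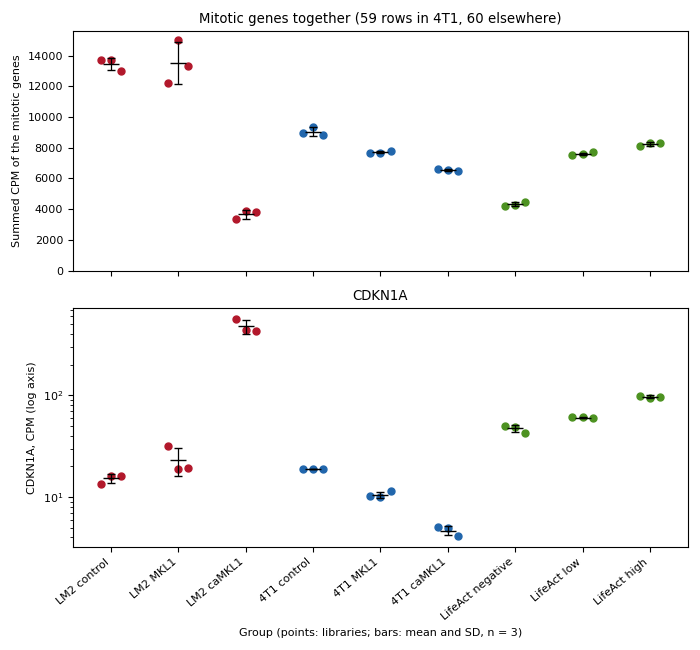
Summed CPM of the mitotic genes (top, linear axis) and CPM of CDKN1A (bottom, log axis) in each of the 27 libraries, with the mean and SD of each group of 3. The caMKL1 libraries of LM2 sit near 3673.0 CPM for the set and near 479 CPM for CDKN1A, while in 4T1 both quantities are lowest with caMKL1.

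Per kilobase of counted exon, TPX2, a spindle assembly factor that activates AURKA, had the highest level of the set in LM2 control cells, at 169.0 CPM per kilobase. TOP2A, the topoisomerase that untangles sister chromatids, followed at 166.1 and MKI67, which coats mitotic chromosomes, at 121.1 CPM per kilobase. NUSAP1 and PRC1 had the lowest, at 0.327 and 0.973 CPM per kilobase. In caMKL1 cells TPX2 still had the highest level, at 84.1 CPM per kilobase, followed by SMC4 at 41.2 and KIF14 at 32.0, with TOP2A at 25.0. In 4T1 control cells TOP2A led at 129.9 CPM per kilobase, ahead of MKI67 at 117.3 and SMC4 at 106.0. The counting left out reads that overlap more than 1 gene, and other genes cover 81.4% of the exon bases of human NUSAP1 and 61.9% of those of human PRC1, so the human levels of both are uncertain. NUSAP1 fell to 2 counts in its lowest LM2 library and 13 in its lowest LifeAct library, whereas the lowest count of any member in 4T1 was 222, for CENPK.

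With caMKL1, LM2 cells had all 60 mitotic genes called lower than control cells and 0 higher, and DESeq2 and limma voom made the same counts, as did an unadjusted p of 0.05. Of all 18893 genes tested, 33.0% were called lower in this comparison. The members' median log2 ratio was -2.35, against -0.05 over all tested genes, and 56 of the 60 were at least 2-fold lower. The 3 caMKL1 libraries lay below the 3 control libraries for 60 members, where 36.7% of all tested genes showed such a separation. Log2 ratios ran from -3.10 for NUSAP1 to -0.33 for KIF14 and KIFC1.

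The cyclins and CDK1, which drive entry into mitosis, were called lower in 5 of 5 cases with a median log2 ratio of -2.39. CCNB1, the cyclin of the mitotic CDK1 complex, was at 268, 285 and 244 CPM in control libraries, 354, 262 and 290.3 CPM with MKL1 and 75.8, 64.0 and 58.6 CPM with caMKL1. Its caMKL1 values all lay below the others, 4.01-fold lower than control (log2 ratio -2.00 ± 0.12, edgeR adjusted p = 9.9e-10). CDK1 was at 206, 206 and 172 CPM in control libraries, 253, 217 and 224 CPM with MKL1 and 37.4, 34.2 and 32.8 CPM with caMKL1, with a log2 ratio to control of -2.48 ± 0.10 under caMKL1. The phosphatase CDC25C fell furthest of this class, from 26.8, 27.0 and 29.0 CPM in control libraries to 5.08, 4.42 and 4.27 CPM (-2.58 ± 0.14). CCNA2 and CCNB2 had log2 ratios of -2.38 ± 0.09 and -2.09 ± 0.11.

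All 6 mitotic kinases were lower, with a median log2 ratio of -2.43. PLK1, which matures centrosomes and helps to switch on CDK1, was at 62.9, 63.5 and 59.9 CPM in control libraries, 75.2, 67.4 and 60.3 CPM with MKL1 and 10.8, 10.3 and 8.44 CPM with caMKL1. The caMKL1 libraries were 6.29-fold below control, with no overlap (log2 ratio -2.65 ± 0.12, edgeR adjusted p = 1.7e-11). PBK, a kinase active in mitosis, had the largest fall of the class, from 112, 110.5 and 93.9 CPM to 14.7, 18.2 and 15.7 CPM (-2.70 ± 0.11). AURKA, the spindle pole kinase, had the smallest, from 187, 206 and 182 CPM to 62.7, 53.5 and 51.5 CPM (-1.78 ± 0.10). AURKB, the kinase of the chromosomal passenger complex, went from 39.7, 39.9 and 34.8 CPM to 9.19, 7.20 and 7.15 CPM (-2.27 ± 0.15). NEK2 and MELK, with log2 ratios of -2.54 ± 0.09 and -2.31 ± 0.09, lay between these.

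The spindle checkpoint genes were lower in 5 of 5 cases, with BUB3 set apart. BUB1, the kinase that recruits checkpoint proteins to kinetochores, was at 204, 195 and 194 CPM in control libraries and 33.3, 32.4 and 31.9 CPM with caMKL1 (-2.60 ± 0.09). MAD2L1, the inhibitor of CDC20, fell furthest of the class, from 176, 174 and 144 CPM to 26.9, 27.6 and 25.2 CPM (-2.63 ± 0.10). BUB3, the adaptor of BUB1 and BUB1B, fell from 379.8, 378 and 314 CPM to 169.9, 163 and 158 CPM (-1.13 ± 0.11). All 3 genes had caMKL1 libraries wholly below control. BUB1B and TTK had log2 ratios of -2.18 ± 0.09 and -2.59 ± 0.11.

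The 5 genes of anaphase control were all lower, with a median of -2.65 on the log2 scale. CDC20, the activator of the anaphase-promoting complex, was at 102, 106 and 92.5 CPM in control libraries, 150.4, 99.3 and 104 CPM with MKL1 and 18.2, 13.9 and 13.1 CPM with caMKL1. It was 6.62-fold lower than control under caMKL1, without overlap (-2.73 ± 0.16, edgeR adjusted p = 5.0e-10). The other members ranged from -1.64 ± 0.11 for PTTG1, the securin that inhibits separase, to -2.67 ± 0.14 for ESPL1, the separase itself. SGO1, the protector of centromeric cohesin, and UBE2C, an E2 enzyme of the complex, had log2 ratios of -1.99 ± 0.12 and -2.65 ± 0.20.

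At kinetochores and centromeres 9 of 9 genes were lower, with a median log2 ratio of -2.44. CENPA, the centromeric histone H3 variant, was at 20.7, 20.5 and 17.7 CPM in control libraries, 28.4, 18.5 and 22.7 CPM with MKL1 and 2.35, 2.30 and 2.53 CPM with caMKL1. That is 8.20-fold below control (-3.04 ± 0.17, edgeR adjusted p = 3.8e-10), the largest fall of the class, and no library overlapped. The subunits of the NDC80 complex, which binds microtubules, had log2 ratios of -2.44 ± 0.11 for NDC80, -2.52 ± 0.11 for NUF2, -2.46 ± 0.14 for SPC24 and -2.97 ± 0.13 for SPC25. CENPI, of the inner kinetochore, had the smallest fall of the class (-1.44 ± 0.09), followed by the kinetochore motor CENPE (-1.55 ± 0.20) and the inner kinetochore subunit CENPK (-1.68 ± 0.09). CENPF, a large protein of the outer kinetochore, was among the most abundant by count, at 1097, 1112 and 1147 CPM in control libraries and 174, 223 and 222 CPM with caMKL1 (-2.44 ± 0.16).

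The 10 kinesins had the widest spread of any class, from -2.83 to -0.33. KIF15, which backs up KIF11 in spindle bipolarity, fell from 97.3, 100.2 and 96.0 CPM to 13.1, 15.2 and 13.2 CPM (-2.83 ± 0.12), and KIF2C, a microtubule depolymerase, from 144, 152 and 128 CPM to 23.2, 19.1 and 19.1 CPM (-2.78 ± 0.11). KIF11, KIF20A and KIF4A lay close to these, with log2 ratios of -2.51 ± 0.11, -2.52 ± 0.09 and -2.47 ± 0.12. At the other end, KIFC1, a minus-end motor that clusters centrosomes, was at 64.7, 65.3 and 59.7 CPM in control libraries and 52.9, 48.9 and 49.0 CPM with caMKL1. Its libraries did not overlap, yet it was only 1.26-fold lower (-0.33 ± 0.09, edgeR adjusted p = 0.00349). KIF14, a kinesin of the cytokinesis midbody, was at 295, 293 and 291 CPM in control libraries and 201, 241 and 259 CPM with caMKL1 (-0.33 ± 0.11, edgeR adjusted p = 0.0137), and without the first caMKL1 library the log2 ratio was -0.225 with an adjusted p of 0.067. KIF20B, KIF18A and KIF23 lay between, at -0.92 ± 0.18, -1.07 ± 0.09 and -1.11 ± 0.10.

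Among spindle and midzone proteins all 9 were lower. TPX2 was at 605, 626 and 597 CPM in control libraries and 289.6, 312 and 307 CPM with caMKL1, which is 2.01-fold lower (-1.01 ± 0.10), the smallest fall of the class. ASPM, a spindle pole protein, fell from 682, 650.1 and 653 CPM to 86.9, 108 and 112 CPM (-2.70 ± 0.16). DLGAP5, HMMR and CKAP2L, which stabilise spindle microtubules, had log2 ratios of -2.44 ± 0.10, -2.01 ± 0.16 and -1.77 ± 0.10. RACGAP1 and ECT2, which act in cytokinesis, differed in size, at -2.21 ± 0.10 and -1.36 ± 0.09. NUSAP1 was at 1.46, 0.759 and 1.32 CPM in control libraries and 0.192, 0.0940 and 0.0993 CPM with caMKL1 (-3.10 ± 0.43), levels that rest on few counts, and PRC1, the midzone bundler, had a log2 ratio of -1.66 ± 0.20.

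TOP2A, MKI67 and the condensin subunits were also lower in 6 of 6 cases. TOP2A fell from 1076, 1100.0 and 1001 CPM in control libraries to 152, 168 and 158 CPM with caMKL1 (-2.73 ± 0.10). MKI67 fell from 1537, 1550.0 and 1581 CPM to 191, 246 and 229.6 CPM (-2.81 ± 0.16), the largest fall here. The non-SMC condensin subunit NCAPH fell by a like amount (-2.78 ± 0.11), while NCAPG (-1.60 ± 0.11) and the condensin ATPases SMC2 (-1.50 ± 0.12) and SMC4 (-0.97 ± 0.16) fell less. Of the chromosomal passenger subunits, BIRC5 (survivin) went from 85.5, 89.3 and 76.2 CPM to 14.1, 12.7 and 12.4 CPM (-2.68 ± 0.10), with INCENP at -2.28 ± 0.10 and CDCA8 at -1.73 ± 0.11. The transcription factors FOXM1 and MYBL2 had log2 ratios of -2.25 ± 0.10 and -2.26 ± 0.15. MYBL2 was at 51.6, 50.6 and 41.9 CPM in control libraries, 65.0, 58.0 and 51.4 CPM with MKL1 and 11.9, 10.2 and 7.75 CPM with caMKL1.

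**Figure D2:**
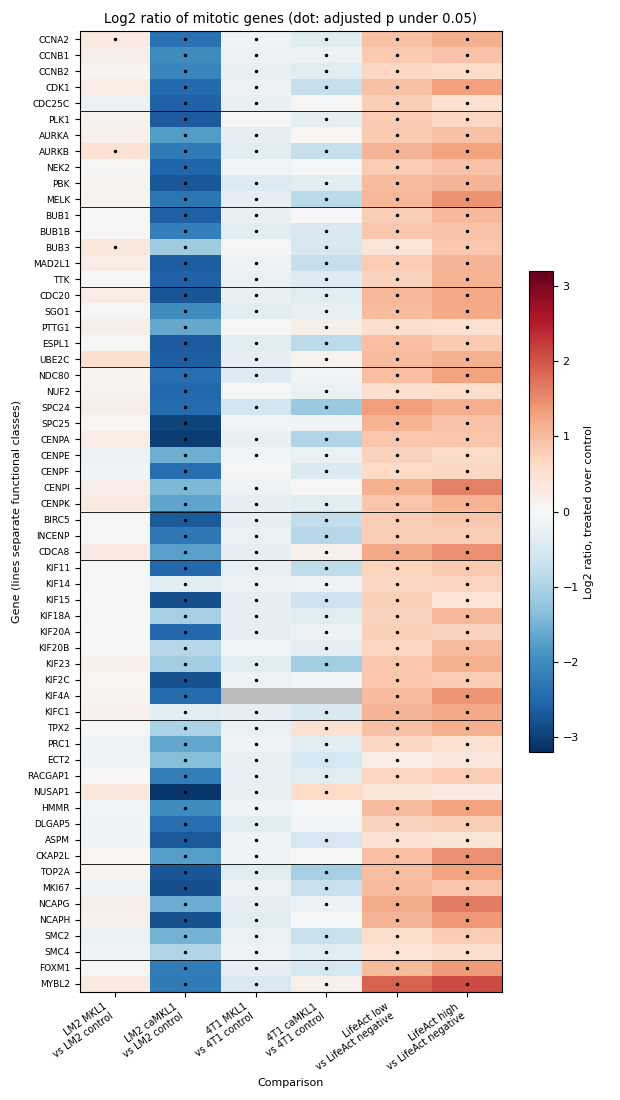
Log2 ratios of the mitotic genes (rows, grouped by functional class) in the 6 comparisons with the control or negative group (columns), where a dot marks an adjusted p under 0.05 and grey a gene with no row. The LM2 caMKL1 column is blue for all 60 genes, the 4T1 caMKL1 column is paler and holds 6 genes called higher, and the LifeAct columns are red.

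Scaling each library to its total instead of by TMM gave the same 60 calls in LM2 caMKL1 cells, with a members' median of -2.75 against -0.46 over all genes. CDKN1A, whose product p21 inhibits cyclin-dependent kinases, was at 13.4, 16.2 and 16.3 CPM in LM2 control libraries, 31.5, 18.8 and 19.3 CPM with MKL1 and 569, 439 and 428 CPM with caMKL1, and its part in the falls was not tested. Leukocyte markers summed to at most 0.731 CPM in any LM2 group, fibroblast markers to between 12.7 and 13.8 CPM in caMKL1 cells against 5.76 to 7.66 CPM in control, and endothelial markers to between 2.87 and 3.85 CPM against 6.37 to 8.94 CPM. In control libraries 1 of the 5 leukocyte markers (CD3E) and 1 of the 5 fibroblast markers (DCN) were at 0, and none of these or of the 5 endothelial markers was at 0 with caMKL1. Enough counts for a test were found for 0 leukocyte, 2 endothelial (2 lower with caMKL1) and 3 fibroblast markers (1 lower, 1 higher). The more abundant lists had higher sums with caMKL1, but not every marker was higher. With caMKL1, 3 of 4 tested epithelial markers were called higher and 0 lower, and 4 of 5 mesenchymal-like markers higher and 1 lower. Of all tested genes 31.9% were higher and 33.0% lower. The 5 epithelial markers summed to between 351 and 369 CPM in control libraries, 466 to 569.7 CPM with MKL1 and 1607 to 1976 CPM with caMKL1, and the 5 mesenchymal-like line markers to between 3113 and 3278, 4247 and 4802, and 9532 and 11045 CPM, with no marker of either list at 0. The part of these markers in the falls was not tested.

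The promoters of the members were also examined. The members were picked by name, so their motifs are a trait of the list and do not depend on the falls. Of the 60 genes, 51 had an entry in RefSeq's promoter table (GRCh38.p14), which spans 250 bases before to 50 after the start. The CHR, searched on both strands as TTTGAA or TTCGAA, was found in 36 of 51 windows (70.6%), against 16.6% of 27305 windows in the whole table. The CCAAT box, searched as CCAAT on both strands, was found in 38 (74.5%), against 35.7% of all windows, and both motifs together in 29 (56.9%), against 6.58%. The letters of the CHR and the CCAAT box can share a base, and did so in 2 of the 51 genes. The CArG box, the element that SRF binds, searched by its usual consensus on both strands, was found in 0 of 51 windows and in 1.29% of all windows. At that share few matches or none would be found in 51 windows. The E2F sites TTCCCGC and TTTCGCGC were found in 7.84% and 1.96% of the members' windows, against 6.56% and 0.55% of all windows. The part of these motifs in the changes was not tested. Within the set, the median LM2 caMKL1 log2 ratio was -2.44 for the 36 genes with a CHR and -2.31 for the 15 without. The ranges overlapped, from -3.10 to -0.33 with a CHR and from -2.78 to -1.44 without. Against negative cells the medians were 0.82 with a CHR and 0.88 without in LifeAct low cells, and 0.90 and 1.11 in high cells. For LM2 MKL1 they were 0.03 and 0.18. Differences between genes with and without a CHR were not tested. The 200 bases before the start are shown for 6 genes, with CHR and CCAAT letters in capitals. CCNB2, CDC20, CENPA and PLK1 carry both motifs and fell at least 4-fold, KIF18A carries both and fell 2.10-fold, and KIF2C carries neither in this stretch and fell 6.87-fold. On GRCh38.p14 they lie at chr15:59104946-59105145 (plus strand, CCNB2), chr1:43358781-43358980 (plus strand, CDC20), chr2:26785856-26786055 (plus strand, CENPA), chr16:23678689-23678888 (plus strand, PLK1), chr11:28108157-28108356 (minus strand, KIF18A) and chr1:44739637-44739836 (plus strand, KIF2C).
CCNB2: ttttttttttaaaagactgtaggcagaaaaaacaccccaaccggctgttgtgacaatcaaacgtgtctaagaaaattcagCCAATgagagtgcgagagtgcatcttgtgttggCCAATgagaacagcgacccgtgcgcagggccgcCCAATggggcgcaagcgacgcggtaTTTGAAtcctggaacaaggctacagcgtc
CDC20: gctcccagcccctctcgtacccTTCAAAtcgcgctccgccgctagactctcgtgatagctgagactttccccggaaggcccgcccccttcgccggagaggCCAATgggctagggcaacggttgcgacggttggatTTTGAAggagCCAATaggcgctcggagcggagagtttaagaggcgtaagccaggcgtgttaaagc
CENPA: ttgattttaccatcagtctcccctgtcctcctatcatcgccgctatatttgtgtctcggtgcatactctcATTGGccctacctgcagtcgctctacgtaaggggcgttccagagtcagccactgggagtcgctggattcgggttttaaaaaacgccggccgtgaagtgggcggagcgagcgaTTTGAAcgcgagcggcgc
PLK1: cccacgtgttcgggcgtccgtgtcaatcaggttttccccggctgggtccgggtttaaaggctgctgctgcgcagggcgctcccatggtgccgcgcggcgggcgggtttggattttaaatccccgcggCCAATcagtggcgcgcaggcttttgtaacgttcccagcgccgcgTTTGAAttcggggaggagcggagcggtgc
KIF18A: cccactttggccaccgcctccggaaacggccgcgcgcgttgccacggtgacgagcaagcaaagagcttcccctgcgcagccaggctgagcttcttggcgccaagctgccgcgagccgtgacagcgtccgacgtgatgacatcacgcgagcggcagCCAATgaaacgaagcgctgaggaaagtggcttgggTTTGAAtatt
KIF2C: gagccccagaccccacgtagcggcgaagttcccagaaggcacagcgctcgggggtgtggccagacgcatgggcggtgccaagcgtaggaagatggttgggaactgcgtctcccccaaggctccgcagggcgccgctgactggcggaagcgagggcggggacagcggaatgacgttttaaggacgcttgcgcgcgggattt
The CHR lies 29 bases before the start in CCNB2 and PLK1, 18 in CENPA, 10 in KIF18A and, for the nearer of 2 matches, 65 in CDC20.

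With wild-type MKL1, few of these genes changed in LM2. Relative to control, 3 members were called higher, 0 lower and 57 neither, where 7.25% of all tested genes were called higher and 4.74% lower. At an unadjusted p of 0.05, 9 were higher and 0 lower, while DESeq2 called 5 higher and 0 lower, and limma voom 3 and 0. The median log2 ratio was 0.07, with a range from -0.21 for SMC2 to 0.52 for UBE2C. AURKB was at 39.7, 39.9 and 34.8 CPM in control libraries and 64.3, 48.1 and 44.1 CPM with MKL1 (0.45 ± 0.14, edgeR adjusted p = 0.0424). BUB3 was at 379.8, 378 and 314 CPM and 535, 429 and 423 CPM (0.37 ± 0.11, edgeR adjusted p = 0.0359). CCNA2 was at 184, 188 and 167 CPM and 208, 228 and 218 CPM (0.28 ± 0.09, edgeR adjusted p = 0.0427). In each of these genes the MKL1 libraries lay above the control libraries. Such a separation was found for 11 of the 60 members and 16.5% of all tested genes, and the reverse for 0 members and 15.7% of all tested genes. UBE2C was higher still, at 59.2, 61.4 and 53.7 CPM and 114, 65.5 and 70.9 CPM (0.52 ± 0.17), but did not pass edgeR's test (adjusted p = 0.0636), while it passed with DESeq2 (adjusted p = 0.0308). Its first MKL1 library was well above the others of that group.

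The other members with the largest change in their class did not pass edgeR's test either. CENPK was at 85.1, 76.7 and 71.5 CPM in control libraries and 93.3, 98.1 and 91.5 CPM with MKL1 (0.28 ± 0.09), and passed with DESeq2 (adjusted p = 0.0223). CDCA8, the passenger subunit borealin, was at 91.7, 98.8 and 88.1 CPM and 122, 113 and 97.9 CPM (0.25 ± 0.10), and MYBL2, with the values given above, had a log2 ratio of 0.28 ± 0.13. NUSAP1 was at 1.57, 1.47 and 1.45 CPM with MKL1 (0.35 ± 0.28), overlapping control. SMC2 was at 299.8, 295 and 280.2 CPM and 200.4, 299.7 and 258 CPM (-0.21 ± 0.12), with its lowest value in the first MKL1 library. KIF23, a cytokinesis kinesin, was at 318, 316 and 282 CPM and 352, 371 and 306 CPM (0.17 ± 0.10). Single libraries decided the 3 calls. Without any 1 of the control libraries, or without the second caMKL1 library, which shares the variance estimate, 0 members were called higher. Without the first MKL1 library 1 was called, and without the first library of both MKL1 and caMKL1 6 were. With library totals 0 were called.

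Set against MKL1 cells, caMKL1 cells of LM2 again had all 60 genes called lower, where 31.9% of all tested genes were, with a median log2 ratio of -2.41. Because these comparisons share the caMKL1 libraries they are not independent. The largest falls were those of NUSAP1 (-3.45 ± 0.41), CENPA (-3.28 ± 0.17) and UBE2C (-3.17 ± 0.20), and the smallest that of KIF14 (-0.30 ± 0.11). UBE2C stood at 10.8, 9.78 and 7.10 CPM with caMKL1, and NCAPH at 79.8, 81.7 and 69.8 CPM with MKL1 and 11.2, 9.12 and 9.78 CPM with caMKL1 (-2.94 ± 0.11). BIRC5 was at 82.2, 91.6 and 86.2 CPM with MKL1 (-2.73 ± 0.10), KIF2C at 153, 149 and 140.5 CPM (-2.85 ± 0.11) and PBK at 119, 105 and 114 CPM (-2.80 ± 0.11), each far above the caMKL1 values given above. MAD2L1 was at 207, 192 and 183 CPM with MKL1 (-2.87 ± 0.10). The caMKL1 libraries lay below the MKL1 libraries for 59 members, where 32.6% of all tested genes showed such a separation. KIF14, at 249, 307 and 303 CPM with MKL1, was the 1 member whose ranges overlapped between MKL1 and caMKL1 cells. Its call was lost without the first caMKL1 library, the second MKL1 library or the third MKL1 library, with adjusted p between 0.0546 and 0.111.

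**Figure D3:**
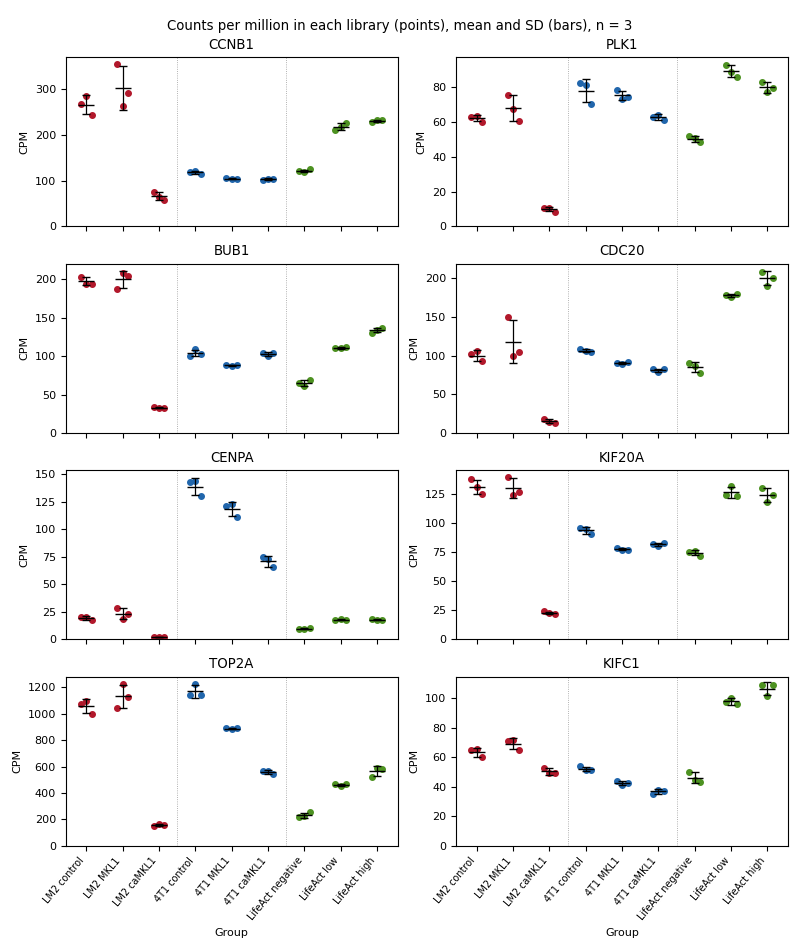
CPM of 8 mitotic genes in every library (points), with the mean and SD of each group (bars), in the order LM2, 4T1 and LifeAct. KIFC1 is between 48.9 and 52.9 CPM in the LM2 caMKL1 libraries, a smaller fall from control than in the other 7 genes, and all 8 are higher in LifeAct low and high cells than in negative cells.

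In 4T1 cells, most of the set was slightly lower with wild-type MKL1. Relative to control, 51 of 59 genes were called lower and 0 higher, where 2449 of all 16297 tested genes (15%) were called lower and 19.3% higher. The median log2 ratio was -0.24, the range ran from -0.58 to 0.01, and no member reached a 2-fold change. At an unadjusted p of 0.05, 53 were lower and 0 higher, and DESeq2 called 50 and limma voom 51 lower, with 0 higher. SPC24, of the NDC80 complex, had the largest fall, from 34.6, 37.2 and 32.8 CPM to 24.6, 22.5 and 23.2 CPM (-0.58 ± 0.06, edgeR adjusted p = 1.1e-07). MYBL2 went from 58.6, 54.1 and 54.4 CPM to 39.1, 39.4 and 41.1 CPM (-0.48 ± 0.05), and PBK from 65.4, 71.2 and 65.0 CPM to 50.2, 49.4 and 50.4 CPM (-0.43 ± 0.04). In these 3 genes no MKL1 library reached the lowest control library, and in all, 52 members had MKL1 libraries wholly below control and 0 wholly above, where 20.7% and 23.4% of all tested genes did.

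The largest falls of the other classes were close in size. TOP2A and KIF23, whose values follow with caMKL1, had log2 ratios of -0.40 ± 0.03 and -0.38 ± 0.03. SGO1 went from 69.3, 74.8 and 75.9 CPM to 56.0, 56.7 and 58.8 CPM (-0.36 ± 0.04). BUB1B, the checkpoint pseudokinase, went from 155, 158 and 149 CPM to 125, 121 and 119 CPM (-0.34 ± 0.03), and DLGAP5 from 76.0, 78.3 and 77.7 CPM to 61.1, 58.9 and 64.3 CPM (-0.33 ± 0.04). These genes had MKL1 libraries below control. BIRC5 went from 86.5, 92.0 and 79.2 CPM to 72.3, 70.9 and 68.3 CPM (-0.29 ± 0.05), and CDC25C from 26.4, 25.8 and 24.9 CPM to 21.6, 22.7 and 20.6 CPM (-0.25 ± 0.06), also without overlap. FOXM1, AURKB, NDC80 and AURKA were at -0.29, -0.33, -0.41 and -0.29, and CCNB1 and CDK1 at -0.18 and -0.18.

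The 8 members that did not pass were NUF2, CENPF, NEK2, SPC25, PLK1, BUB3, PTTG1 and KIF20B. PLK1 was at 82.3, 81.0 and 70.2 CPM in control libraries and 78.1, 72.9 and 74.2 CPM with MKL1 (-0.05 ± 0.05), with overlapping ranges. PTTG1 was at 39.1, 39.6 and 36.9 CPM and 39.3, 39.2 and 37.6 CPM (0.01 ± 0.05), also overlapping. BUB3 was at 112, 107 and 105 CPM and 109, 105 and 103 CPM (-0.03 ± 0.04). NUF2 (57.1, 59.0 and 52.5 CPM against 55.7, 53.5 and 55.3 CPM, -0.04 ± 0.05) and SPC25 (24.3, 27.6 and 26.0 CPM against 24.7, 24.0 and 24.5 CPM, -0.09 ± 0.06) overlapped as well. CENPF was at 300.4, 329 and 296 CPM and 286, 296 and 303 CPM (-0.06 ± 0.04), overlapping too. NEK2 (80.6, 81.0 and 79.2 CPM against 74.3, 76.7 and 74.8 CPM) and KIF20B (130.3, 143 and 133 CPM against 127, 126 and 127 CPM) were lower in every MKL1 library, but not past the threshold (edgeR adjusted p = 0.0724 and 0.0758). Within the NDC80 complex, SPC24 and NDC80 were called lower and NUF2 and SPC25 were not, and differences between the subunits were not tested. Scaled to library totals, CENPF, NEK2, SPC25 and KIF20B were called lower, at -0.131, -0.160, -0.161 and -0.160. KIF20B was also called lower without the low-count filter (-0.104).

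With caMKL1, 4T1 cells showed falls and rises side by side. Relative to control, 41 of 59 genes were called lower, 6 higher and 12 neither, where 35.8% of all tested genes were called lower and 36.2% higher. The median log2 ratio was -0.37, against -0.02 over all genes, and 3 members were at least 2-fold lower. The caMKL1 libraries lay wholly below control for 43 members and wholly above for 6, where 36.7% and 37.0% of all tested genes did. Scaled to library totals, 53 were called lower and 2 higher, and the all-gene median shifted to -0.21.

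The 3 members that fell at least 2-fold were SPC24, KIF23 and TOP2A. SPC24 was at 15.4, 14.2 and 16.1 CPM with caMKL1, below the MKL1 libraries given above (-1.20 ± 0.07 against control, edgeR adjusted p = 7.1e-14). KIF23 was at 164, 171 and 167 CPM in control libraries, 127, 128 and 131 CPM with MKL1 and 77.8, 78.3 and 78.0 CPM with caMKL1 (-1.10 ± 0.03). TOP2A was at 1140.0, 1227 and 1145 CPM, 888, 882 and 892 CPM and 567, 569.8 and 543 CPM in the same order (-1.06 ± 0.03). For each of these genes the 3 groups were fully separated, with MKL1 between control and caMKL1.

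CENPA, INCENP, MELK and ESPL1 also fell by close to 1 on the log2 scale. CENPA was at 143, 144 and 130.0 CPM in control libraries, 121, 124 and 112 CPM with MKL1 and 75.2, 72.8 and 65.6 CPM with caMKL1 (-0.97 ± 0.05). INCENP, the scaffold of the passenger complex, went from 174, 173 and 168 CPM in control libraries to 90.7, 92.4 and 88.8 CPM (-0.92 ± 0.03). MELK went from 65.4, 64.1 and 64.8 CPM to 36.7, 35.9 and 34.0 CPM (-0.87 ± 0.04). None of these overlapped control. ESPL1, at 68.2, 69.6 and 66.5 CPM in control libraries and 40.8, 38.1 and 35.9 CPM with caMKL1, had a log2 ratio of -0.83 ± 0.05. KIF11 (-0.82 ± 0.04), BIRC5 (-0.79 ± 0.05), CDK1 (-0.75 ± 0.04), MAD2L1 (-0.75 ± 0.04), AURKB (-0.74 ± 0.04) and MKI67 (-0.72 ± 0.03) formed the next tier. CDK1 was at 143, 146 and 140.5 CPM in control libraries and 87.8, 82.1 and 86.4 CPM with caMKL1, and MAD2L1 at 82.6, 86.9 and 78.8 CPM and 49.1, 49.9 and 49.2 CPM. FOXM1 fell from 155, 151 and 146 CPM to 99.8, 104 and 104 CPM (-0.55 ± 0.03), and CENPF, PLK1, CDC20, KIF20A and CCNB1 had smaller called falls of -0.46, -0.31, -0.39, -0.20 and -0.18.

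The 6 members called higher were NUSAP1, TPX2, PTTG1, CDCA8, MYBL2 and UBE2C. NUSAP1, a microtubule bundler, was at 96.1, 99.5 and 93.2 CPM in control libraries, 81.2, 81.2 and 81.7 CPM with MKL1 and 157, 152 and 142 CPM with caMKL1. It was 1.56-fold higher than control (0.64 ± 0.04, edgeR adjusted p = 2.3e-13), with no overlap. TPX2 was at 174, 177 and 173 CPM, 150.5, 148 and 158 CPM and 245, 244 and 251 CPM in the same order (0.50 ± 0.03, edgeR adjusted p = 5.4e-13). Both genes were thus lowest with MKL1 and highest with caMKL1. MYBL2 followed the same order of groups, with 60.9, 61.5 and 64.4 CPM under caMKL1 (0.16 ± 0.04). PTTG1 (42.2, 45.6 and 44.2 CPM, 0.19 ± 0.05), CDCA8 (63.1, 59.0 and 54.0 CPM in control and 69.1, 64.6 and 64.8 CPM, 0.17 ± 0.05) and UBE2C (106, 101 and 102 CPM in control and 107, 113 and 114 CPM, 0.12 ± 0.04) had small rises. Scaled to library totals, NUSAP1 and TPX2 stayed higher (log2 ratios 0.46 and 0.32), PTTG1 was at 0.01 and not called, and CDCA8, MYBL2 and UBE2C turned to -0.01, -0.02 and -0.06, not called. BUB1, NDC80, AURKA and KIF2C were among the 12 not called, with -0.02, -0.09, 0.05 and -0.08. With library totals each of them was called lower, at -0.20, -0.27, -0.13 and -0.26. NDC80 was also called lower without the low-count filter (-0.12).

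In 4T1, CDKN1A was at 18.8, 18.8 and 18.9 CPM in 4T1 control libraries, 10.1, 10.1 and 11.4 CPM with MKL1 and 5.03, 4.91 and 4.12 CPM with caMKL1, a log2 ratio of -2.01 for caMKL1, and the difference from LM2 in the joint fit described below was -7.10. Leukocyte markers summed to between 6.31 and 6.63 CPM in control libraries, 19.5 to 22.4 CPM with MKL1 and 55.6 to 63.7 CPM with caMKL1, with CD3E of the 5 at 0 in all 3 groups and ITGAM at 0 with MKL1 and caMKL1. Endothelial markers summed to between 0.707 and 0.803 CPM in control and 7.49 to 7.75 CPM with caMKL1, and fibroblast markers to between 28.2 and 30.3 CPM and 25.3 to 26.1 CPM, with LUM at 0 in all 3 groups and DCN at 0 with caMKL1. Epithelial markers summed to between 2133 and 2192 CPM in control libraries, 3306 to 3376 CPM with MKL1 and 4455 to 4652 CPM with caMKL1, and mesenchymal-like line markers to between 3402 and 3459, 4405 and 4436, and 4107 and 4159 CPM. Enough counts for a test were found for 1 leukocyte and 1 endothelial marker, both called higher with caMKL1 than in control. Of 3 tested fibroblast markers 2 were lower and 1 higher. Of 5 epithelial markers 1 was lower and 4 higher, and of 5 mesenchymal-like markers 2 were lower and 3 higher. Of all tested genes 35.8% were lower and 36.2% higher. The part of CDKN1A and of these markers in the changes was not tested.

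Between the treated groups of 4T1, caMKL1 cells had 33 members called lower than MKL1 cells, 15 higher and 11 neither, where 32.8% of all tested genes were called lower and 33.8% higher. The ranges of the groups did not overlap for 34 members lower and 18 members higher with caMKL1, against 34.7% and 35.4% of all tested genes. CENPA had the largest fall (-0.74 ± 0.05), followed by KIF23 (-0.72 ± 0.03) and INCENP (-0.70 ± 0.03). NUSAP1 (0.89 ± 0.04), TPX2 (0.70 ± 0.03) and MYBL2 (0.65 ± 0.05) had the largest rises. The remaining 12 called higher were CDCA8, UBE2C, PTTG1, NCAPH, NCAPG, AURKA, NDC80, CDC25C, DLGAP5, BUB1, CENPI and CKAP2L, between 0.12 and 0.45 on the log2 scale. Scaled to library totals, PTTG1, NCAPG, CENPI and CKAP2L were at 0.069, 0.005, 0.078 and 0.038 and not called. NCAPH was at 82.3, 83.4 and 78.8 CPM in control libraries, 65.3, 63.8 and 65.0 CPM with MKL1 and 83.2, 82.5 and 82.4 CPM with caMKL1, and NDC80 at 70.1, 71.8 and 67.9 CPM, 53.9, 51.6 and 52.2 CPM and 69.1, 66.1 and 62.5 CPM. For NCAPH and NDC80 the MKL1 libraries were lower than both other groups.

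The lines were compared directly in 1 fit over 18 libraries and the 13113 tested genes that share a symbol, as the difference between the 4T1 and LM2 responses. For caMKL1, 55 of 59 members had a higher ratio in 4T1 than in LM2, 1 a lower ratio and 3 no called difference, where 30.7% of all tested genes were called higher and 29.6% lower. The median difference was 1.70 on the log2 scale. Differences of at least 2 included those of NUSAP1 (3.62 ± 0.33), SPC25 (2.72 ± 0.14), NCAPH (2.67 ± 0.10), UBE2C (2.64 ± 0.20), KIF2C (2.58 ± 0.11) and BUB1 (2.46 ± 0.09). BUB1, for one, was 6.07-fold lower with caMKL1 in LM2 and had a log2 ratio of -0.02 ± 0.04 in 4T1 (-0.20 with library totals). KIFC1 was the member with the lower ratio in 4T1 (-0.30 ± 0.09, edgeR adjusted p = 0.00594), and with library totals its difference was 0.04 and not called. That call was also lost without the first 4T1 control library, the first 4T1 caMKL1 library or the third LM2 control library. KIF14, KIF20B and KIF23 had no called difference (0.03 ± 0.13, 0.48 ± 0.22 and -0.12 ± 0.10). With library totals all 3 were called higher in 4T1, at 0.38, 0.85 and 0.23, so that KIF23 changed sign, while the median of all genes moved to 0.37. KIF20B was also called without the low-count filter (0.52, edgeR adjusted p = 0.0307). KIF23 had log2 ratios of -1.11 ± 0.10 in LM2 and -1.10 ± 0.03 in 4T1.

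For wild-type MKL1 the called differences were negative. Of 59 members, 32 had a lower ratio in 4T1 than in LM2, 0 a higher one and 27 no called difference, where 10.6% of all tested genes were called lower and 9.32% higher, with a median of -0.29. At an unadjusted p of 0.05, 40 were lower and 0 higher. The largest were those of UBE2C (-0.83 ± 0.19, edgeR adjusted p = 0.00364), AURKB (-0.81 ± 0.14) and SPC24 (-0.78 ± 0.12). Without the first LM2 MKL1 library, which was the highest of its group for UBE2C and AURKB, the differences were -0.57 for UBE2C, -0.65 for AURKB and -0.78 for SPC24, so that SPC24 had the largest, followed by MYBL2 (-0.72). The range over single libraries left out was 22 to 40 members called, and without the first LM2 MKL1 and caMKL1 libraries 47 were. With library totals the calls of BIRC5, CCNB1, CCNB2, CDC20, CENPA, FOXM1, KIF20A and RACGAP1 were lost. The lines differ in species and annotation, so the difference between them cannot be told apart from a difference between the tables.

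**Figure D4:**
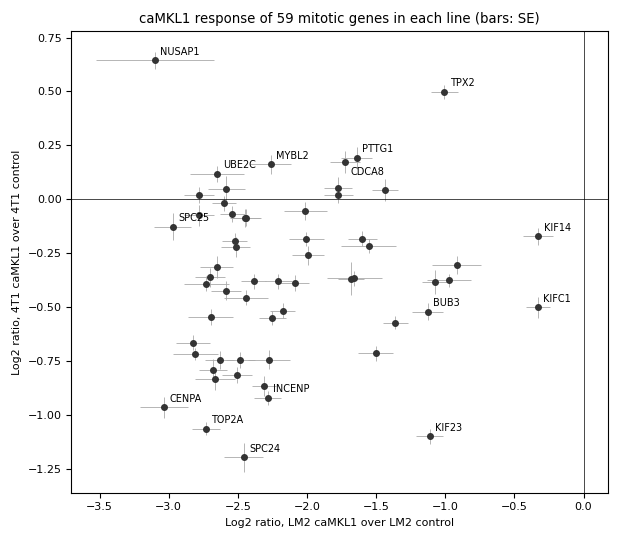
Log2 ratios of 59 mitotic genes under caMKL1, with SE bars, in LM2 (horizontal axis) and 4T1 (vertical axis), each against its own control. All points lie left of 0 in LM2, most lie between -1.20 and 0 in 4T1, and NUSAP1 and TPX2 stand highest in 4T1 at 0.64 and 0.50.

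In the LifeAct experiment the set was higher in low and high cells than in negative cells. In low cells 59 of 60 genes were called higher than in negative cells and 0 lower, where 26.0% of all 21869 tested genes were called higher and 23.6% lower. In high cells 59 were again called higher and 0 lower, where 36.0% were called higher and 35.2% lower. An unadjusted p of 0.05, DESeq2 and limma voom gave the same counts of 59 and 0 in both. These 2 comparisons share the negative libraries. Median log2 ratios were 0.85 in low and 0.93 in high cells, and 18 and 29 members were at least 2-fold higher. NUSAP1 was the member not called in either, at 0.770, 1.55 and 2.02 CPM in negative, 1.70, 2.38 and 1.65 CPM in low and 1.75, 1.89 and 1.60 CPM in high libraries (0.39 ± 0.28 and 0.27 ± 0.28), with overlapping ranges and few counts.

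MYBL2, which activates the late cell cycle genes, had the largest rise of the set. It was at 21.6, 17.7 and 19.6 CPM in negative libraries, 70.7, 74.1 and 73.9 CPM in low libraries and 88.6, 77.4 and 83.9 CPM in high libraries. Low cells were 3.71-fold and high cells 4.25-fold above negative cells, without overlap (log2 ratios 1.89 ± 0.07 and 2.09 ± 0.07, edgeR adjusted p = 7.4e-19 and 6.7e-21). FOXM1, its partner in late activation, was at 90.5, 84.7 and 81.6 CPM in negative, 166, 174 and 176 CPM in low and 231, 210.5 and 213 CPM in high libraries, each group above the one before.

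Members of every class were called higher. Of the mitotic entry genes, CCNB1 was at 121, 119.7 and 124 CPM in negative, 211, 216 and 226 CPM in low and 229, 231 and 233 CPM in high libraries. CDK1 was at 44.5, 41.1 and 42.8 CPM, 82.7, 79.0 and 83.1 CPM and 101, 111 and 106 CPM in the same order, 2.48-fold higher in high than in negative cells (1.31 ± 0.05). CCNA2 was at 41.5, 36.3 and 45.9 CPM, 78.4, 79.3 and 78.8 CPM and 86.7, 95.8 and 91.2 CPM, with log2 ratios of 0.93 ± 0.06 in low and 1.14 ± 0.06 in high cells. Ranges of low and high cells lay above negative cells for all 3 genes. Of the kinases, MELK was at 43.3, 46.0 and 50 CPM, 94.6, 96.4 and 98.1 CPM and 123, 127 and 126 CPM (1.43 ± 0.05 in high cells) and AURKB at 37.8, 37.7 and 37.1 CPM, 79.9, 80.6 and 79.4 CPM and 96.4, 87.5 and 91.3 CPM (1.29 ± 0.05). AURKA rose by 0.94 and PLK1 by 0.67 in high cells.

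Of the checkpoint genes, TTK, the kinase MPS1, was at 19.0, 19.4 and 25.8 CPM in negative, 37.9, 33.7 and 36.0 CPM in low and 39.8, 50.2 and 50.7 CPM in high libraries (1.12 ± 0.10). BUB1B was at 30.0, 33.3 and 32.2 CPM in negative and 60.3, 55.0 and 59.4 CPM in low libraries (0.87 ± 0.06), and BUB1 had a log2 ratio of 1.05 ± 0.05 in high cells. CDC20 was at 90.6, 86.5 and 77.5 CPM, 178, 175 and 180.1 CPM and 208, 190.2 and 201 CPM (1.24 ± 0.05). At the kinetochore, CENPI was at 29.5, 32.5 and 33.1 CPM, 69.4, 71.7 and 70.0 CPM and 89.1, 104 and 99.3 CPM, 3.07-fold higher in high cells (1.62 ± 0.06). SPC24 had the largest rise of that class in low cells, from 16.6, 16.8 and 16.6 CPM to 41.9, 42.1 and 43.3 CPM (1.35 ± 0.08), and NDC80 and CENPA rose by 1.30 and 0.89 in high cells. The negative libraries lay below the other groups in all of these genes.

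The kinesins rose by 0.43 (KIF15) to 1.40 (KIF4A) in high cells. KIF4A, a chromokinesin, was at 26.3, 25.8 and 25.8 CPM in negative, 50.3, 51.5 and 54.5 CPM in low and 69.5, 67.0 and 69.1 CPM in high libraries, and KIFC1, with the largest rise of the class in low cells (1.08 ± 0.06), at 50.2, 44.6 and 43.5 CPM, 97.2, 100.2 and 95.8 CPM and 109, 101 and 109 CPM. Among spindle proteins CKAP2L was at 29.8, 28.4 and 29.3 CPM, 55.4, 56.2 and 59.0 CPM and 77.6, 82.0 and 80.9 CPM (1.46 ± 0.06 in high cells). HMMR was at 4.21, 4.21 and 5.32 CPM in negative and 9.47, 9.94 and 8.64 CPM in low libraries (1.02 ± 0.17). The cytokinesis factor ECT2 had the smallest called rise in low cells, from 133, 139 and 149 CPM to 162, 158 and 164 CPM (0.20 ± 0.05), still without overlap. TPX2 rose by 1.14 ± 0.04 in high cells.

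NCAPG led the chromosome-structure class, at 32.8, 31.1 and 40.7 CPM in negative, 76.7, 79.2 and 80.7 CPM in low and 98.1, 115 and 114 CPM in high libraries (1.18 ± 0.07 and 1.64 ± 0.07). TOP2A rose by 1.29 ± 0.05 in high cells. MKI67 was at 542, 547 and 517 CPM, 1087, 1082 and 1094 CPM and 1028, 946 and 1002 CPM, highest in the low cells. CDCA8 led the passenger subunits, at 40.5, 38.2 and 39.7 CPM, 86.8, 91.6 and 93.9 CPM and 113, 103 and 108 CPM (1.45 ± 0.05), with BIRC5 at 0.87 ± 0.05. ASPM had overlapping ranges between negative (149.9, 149 and 193 CPM) and high libraries (182, 234 and 223 CPM), although it passed the test (0.38 ± 0.07, edgeR adjusted p = 5.6e-05).

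Between high and low cells the set divided. In high cells 32 members were called higher, 6 lower and 22 neither, where 26.6% of all tested genes were called higher and 23.7% lower, with a median of 0.13. High libraries lay wholly below low libraries for 6 members and wholly above for 31, where 28.3% and 29.4% of all tested genes did. CKAP2L (0.49 ± 0.05), CENPI (0.47 ± 0.06), NCAPG (0.46 ± 0.07) and BUB3 (0.44 ± 0.04) had the largest rises, and BUB3 was at 158, 167 and 172 CPM in negative, 222, 223 and 221 CPM in low and 292, 304 and 305 CPM in high libraries. KIF4A, MELK, CDK1, FOXM1, CDCA8 and SGO1 were called higher too, at 0.39, 0.38, 0.38, 0.34, 0.25 and 0.21. SGO1 was at 18.9, 20.4 and 20.1 CPM in low and 22.2, 23.8 and 22.6 CPM in high libraries. Its call was lost with DESeq2 (adjusted p = 0.0668), with library totals, without the low-count filter and without single libraries, such as the first low library. The 6 called lower were KIF15, CDC25C, SPC24, PLK1, MKI67 and ESPL1. KIF15 was at 27.9, 26.3 and 29.5 CPM, 47.0, 46.6 and 47.6 CPM and 38.8, 34.5 and 39.2 CPM in negative, low and high libraries (-0.32 ± 0.06), and CDC25C at 16.5, 16.4 and 14.6 CPM, 27.6, 27.2 and 27.4 CPM and 22.7, 22.8 and 21.5 CPM (-0.30 ± 0.07). PLK1 was at 51.6, 50.8 and 48.1 CPM, 92.7, 88.6 and 85.5 CPM and 83.0, 77.1 and 79.0 CPM (-0.16 ± 0.05). These 3 genes were highest in low cells with no overlap, as were MKI67 (-0.13 ± 0.04) and ESPL1, which was at 107, 109.7 and 112 CPM in low and 106, 101 and 96.6 CPM in high libraries (-0.12 ± 0.05). SPC24 was at 42.2, 36.2 and 33.8 CPM in high libraries (-0.18 ± 0.07), overlapping the low libraries. DESeq2 did not call ESPL1 or SPC24 lower (adjusted p = 0.104 and 0.0916). Without the first low library 3 were called lower and 27 higher, with ESPL1, PLK1 and SPC24 no longer called lower. Scaled to library totals the split was 21 higher and 10 lower.

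CDKN1A was at 50.4, 49.2 and 42.8 CPM in negative libraries, 60.8, 61.0 and 59.9 CPM in low libraries and 99.8, 93.9 and 97.3 CPM in high libraries, 2.04-fold higher in high than in negative cells. Like the mitotic genes it was lowest in negative cells, and its part in the rises was not tested. Endothelial markers summed to between 96.9 and 100.3 CPM in negative libraries, 35.5 to 37.5 CPM in low and 14 to 15.9 CPM in high libraries, leukocyte markers to at most 3.79 CPM in any group, and fibroblast markers to between 24.2 and 26.2 CPM in negative and 11.9 to 13.4 CPM in high libraries. Of the 5 markers in each list, CD3E was at 0 in low libraries and PDGFRA in negative libraries. Epithelial markers summed to between 795 and 878 CPM in negative, 815 and 819 CPM in low and 679 and 763 CPM in high libraries, and mesenchymal-like line markers to between 3112 and 3223, 3132 and 3150, and 3783 and 3826 CPM. Single markers differed in direction between high and negative cells. Of 3 tested endothelial markers 2 were called lower and 1 higher, and of 5 mesenchymal-like markers 2 lower and 3 higher. The 2 tested leukocyte, 2 tested fibroblast and 4 tested epithelial markers each held 1 lower and 1 higher. Of all tested genes 35.2% were lower and 36.0% higher. The part of these markers in the rises was not tested.

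**Figure D5:**
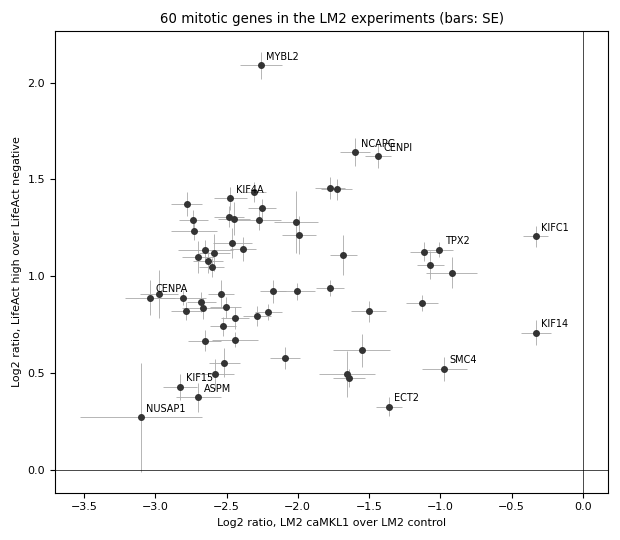
Log2 ratios of 60 mitotic genes, with SE bars, under caMKL1 in LM2 (horizontal axis, against LM2 control) and in LifeAct high cells (vertical axis, against LifeAct negative). Every point lies left of 0 and above 0, and genes with larger falls do not stand systematically higher or lower (Pearson r = 0.06 over 60 genes).

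In LM2 cells the set was thus lower with caMKL1 and higher in LifeAct low and high cells, and the sizes can be set side by side because these comparisons share no library. Of the 60 members, 59 were called lower with caMKL1 and higher in LifeAct high cells. Among all tested genes 33.0% were called lower with caMKL1 and 36.0% higher in LifeAct high cells. The share of all genes with both calls was not computed. Across the 60 genes Pearson's r was 0.06 and Spearman's rank correlation 0.10, a description across genes that are not independent and that share library depth within each experiment. KIFC1 and KIF14, the least lowered with caMKL1, rose by 1.21 and 0.71 in high cells, while KIF15 and ASPM, both strongly lowered with caMKL1 (-2.83 and -2.70), rose by 0.43 and 0.38. Between LM2 and 4T1 caMKL1 ratios, over 59 genes, Pearson's r was 0.10 and the rank correlation 0.13.

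Other genes of the same machinery were taken from named lists. Of 40 further periodic G2 and M phase genes, 36 were lower, 1 higher and 3 neither with caMKL1 in LM2 (median log2 ratio -2.19), where 33.0% of all tested genes were lower and 31.9% higher, and those with the smallest p were DEPDC1B (-3.11 ± 0.11), the CENPA chaperone HJURP (-2.56 ± 0.09) and the spindle protein PSRC1 (-3.14 ± 0.13). In LifeAct low cells 40 of 40 were higher, against 26.0% of all tested genes, and in high cells 39 were higher and 1 lower, against 36.0% and 35.2%. In LM2 with MKL1, 1 was lower and 1 higher, where 4.74% and 7.25% of all tested genes were. In 4T1 with MKL1, 25 of 39 were lower and 0 higher, against 15% and 19.3% of all tested genes. With caMKL1 in 4T1, 21 of 39 were lower and 8 higher, against 35.8% and 36.2%. These genes, like the members, were mostly lower with caMKL1 in LM2 and higher in LifeAct cells.

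Smaller lists of the machinery outside the set are read against the same shares of all tested genes, 33.0% lower and 31.9% higher with caMKL1 in LM2. Of the 14 core subunits of the anaphase-promoting complex, 5 were lower, 4 higher and 5 neither with caMKL1 in LM2, with a median of -0.14, shares near those of all genes. ANAPC1 (1.19 ± 0.09) and ANAPC10 (0.99 ± 0.12) were higher and ANAPC5 (-0.76 ± 0.08) lower. Of 10 cohesin genes 5 were lower and 3 higher, among them the cohesin ring subunits SMC1A (-1.35 ± 0.10) and RAD21 (-1.19 ± 0.09). Of the 8 genes of the mitotic entry switch 5 were lower and 3 higher, with MASTL, the Greatwall kinase, at -1.87 ± 0.11 and its substrate ARPP19 at 0.95 ± 0.09, beside the CDK1-inhibiting kinase WEE1 at 0.93 ± 0.09. Of the 5 MuvB core genes 4 were lower, led by RBBP4 (-1.18 ± 0.09) and LIN9 (-0.96 ± 0.12). In 4T1 with caMKL1, 7 complex subunits were higher and 4 lower, 9 of the cohesin genes lower and 1 higher, 3 of the entry switch genes higher and 2 lower, and 4 MuvB genes higher and 1 lower, where 36.2% of all tested genes were higher and 35.8% lower. In LifeAct high cells 7 complex subunits were higher and 2 lower, 6 cohesin genes higher and 0 lower, 5 entry switch genes higher and 1 lower, and 5 MuvB genes higher and 0 lower, where 36.0% of all tested genes were higher and 35.2% lower.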

How the data were processed

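RNA-seq libraries of LM2, 4T1 and LifeAct negative, low and high LM2 cells were analysed from 3 gene tables. The deposited values are raw counts per gene, made by the authors with featureCounts 2.0.1 on STAR alignments, without a strand option, per the file headers. Annotations were Ensembl 103 (GRCh38) and 102 (GRCm38), per the file headers, and the submitters' processing notes also list DESeq2, hg38 and mm10. The deposited length column, in bases of exon per gene, was used to express CPM per kilobase.

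Counts of each experiment were filtered by edgeR's filterByExpr, scaled by TMM and tested in one quasi-likelihood fit over its 9 libraries (edgeR 4.0.16, R 4.3.3), with Benjamini-Hochberg adjustment over all tested genes and a threshold of 0.05. Differences between lines were tested as an interaction over 18 libraries. The method was tested on simulated counts. Groups and replicates follow the titles, and same-numbered replicates were not taken as pairs in this fit. The members and gene lists were chosen with earlier results of these data known. Library values are given for the members with the largest changes in a comparison and in each class, and for those that went against the rest. Alternatives were DESeq2 1.42.0, limma voom 3.58.1, other scalings, no low-count filter, only the 2 groups compared, the replicate block, a 2-fold threshold, and leaving out each library. Leaving out the first library of LM2 MKL1 and of LM2 caMKL1 together was chosen after seeing the data. Figures were drawn with matplotlib 3.10.9.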

Additional observations from a re-analysis of the deposited data

Results flagged for a closer look

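Among the mitotic genes, 56 had a response to caMKL1 that differed between 4T1 and LM2 in the joint fit (edgeR's quasi-likelihood test with Benjamini-Hochberg adjustment). For 6 of them the response was called lower in LM2 and higher in 4T1. The difference, 4T1 minus LM2 on the log2 scale, was 3.62 for NUSAP1, 2.64 for UBE2C, 2.29 for MYBL2, 1.77 for CDCA8, 1.70 for PTTG1 and 1.38 for TPX2. The 4T1 side of CDCA8, MYBL2 and UBE2C turned negative with library totals, and NUSAP1 rests on few counts in LM2. For wild-type MKL1, 32 members differed between the lines. AURKB and CCNA2 were called higher in LM2 and lower in 4T1, with differences of -0.81 and -0.44, and their LM2 calls were lost without any single control library. CDKN1A had a difference of -7.10 for caMKL1, being higher than control in LM2 and lower in 4T1.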

How the results depend on the processing

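Over all alternatives but the 2-fold threshold, 11399 member values stayed called in the same direction or stayed uncalled. A further 200 lost and 111 gained a call with the sign kept, and 12 changed sign with a call in the fit above or in the alternative. Sign changes of members called in neither fit are among the 11399 and were not counted apart. All 12 came from scaling to library totals. Against 4T1 control, caMKL1 ratios became -0.129 for AURKA, -0.135 for CDC25C, -0.010 for CDCA8, -0.139 for CENPI, -0.164 for CKAP2L, -0.022 for MYBL2, -0.162 for NCAPH and -0.064 for UBE2C. Against 4T1 MKL1 they became -0.100 for KIF14 and -0.092 for NEK2, and the caMKL1 differences between lines 0.232 for KIF23 and 0.041 for KIFC1. Library totals moved the median of all genes to -0.46 and -0.38 for caMKL1 in LM2 against control and MKL1, to -0.21 and -0.13 in 4T1, to -0.11 for LifeAct high against low, and to 0.37 for the caMKL1 difference between lines. They moved all genes called lower and higher from 896 and 1369 to 1241 and 918 for LM2 MKL1, from 6241 and 6030 to 9271 and 4137 for LM2 caMKL1, from 6029 and 6150 to 8635 and 4425 for LM2 caMKL1 against MKL1, from 2449 and 3144 to 3868 and 2324 for 4T1 MKL1, from 5841 and 5900 to 7580 and 4528 for 4T1 caMKL1, from 5353 and 5505 to 6690 and 4534 for 4T1 caMKL1 against MKL1, from 5176 and 5828 to 6437 and 4655 for LifeAct high against low, and from 3882 and 4028 to 2640 and 5554 for the caMKL1 difference.

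The 3 members called higher with MKL1 in LM2 became 5 with DESeq2, 5 without the low-count filter, 6 with the replicate block, 1 with only the 2 groups, 6 without both first libraries, 0 with library totals, 0 with the 2-fold threshold and 0 to 5 with 1 library left out. With library totals, members called higher with caMKL1 in 4T1 fell from 6 to 2, and for LifeAct high against low the counts went from 6 lower and 32 higher to 10 and 21. The 2-fold threshold left 0 members for MKL1 in 4T1, 3 lower and 0 higher for caMKL1 in 4T1, 0 for caMKL1 against MKL1 there, 18 for LifeAct low, 29 for LifeAct high, 0 for high against low and 0 for the MKL1 difference between lines. With 1 library left out, the LifeAct high against low count ran from 3 to 6 lower. The cause of these changes was not tested, except that fewer libraries were used or a stricter threshold set. Replicate numbers were not taken to pair the libraries. Correlations of same-numbered deviations were over 0.1 in 3 of 9 pairs in LM2, 3 of 9 in 4T1 and 0 of 9 in LifeAct, while 7, 6 and 1 libraries of 9 correlated best with their own number, a hint from the data and not the design. With the replicate block UBE2C (edgeR adjusted p = 0.00878), CENPK (0.0369) and MYBL2 (0.0454) were also called higher with MKL1 in LM2, and KIF20B in the caMKL1 difference between lines (0.00836). Against 4T1 control, KIF20B was then called lower with MKL1 (edgeR adjusted p = 0.0426) and DLGAP5 with caMKL1 (0.0464). SGO1 was called higher with caMKL1 than with MKL1 in 4T1 (0.0437), and KIF15 lower in the MKL1 difference between lines (0.0289). The block left the counts of the other comparisons within 1.5 times. Depth limits NUSAP1 in LM2 and LifeAct, where its lowest libraries hold 2 and 13 counts.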
